A study of Mus musculus with 4 samples.

Results

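Cd209a type 2 dendritic cells are described here in transplanted mouse hearts, from droplet single-cell RNA counts. A cell was a member when it carried at least 2 UMIs (unique molecular identifiers, each standing for 1 captured RNA molecule) of Cd209a, none of Xcr1 and Clec9a, at most 2 of Ccr7 and Fscn1 together, at least 5 of H2-Aa and H2-Ab1 together, at most 5 of C1qa, C1qb and C1qc together, and at most 1 of Cd3d, Cd3e and Cd3g together. Of 30895 cells with at least 500 UMIs, at least 300 genes and at most 20% mitochondrial UMIs, 62 were members. There were 2, 1 and 7 of them in the 3 allogeneic libraries, replicates 1, 2 and 3 (allografts 1 to 3), and 52 in the 1 isogeneic library, replicate 2 (the isograft).

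All 4 libraries came from grafted hearts digested to single cells on day 5 after transplantation, and none of the groups had a further treatment in the labels. Allogeneic grafts differ genetically from their recipient, and isogeneic grafts, which the series' design text calls syngeneic, do not. Strain, sex, age and cell sorting are not given in the sources used here, and the sources do not say whether each replicate was its own animal, so a p-value here covers the spread between these libraries alone. With 1 isograft library, graft type and any property of that library cannot be told apart.

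Conventional dendritic cells take up antigen in tissues and present it to T cells. The type 2 branch presents mainly on MHC class II to CD4 T cells, depends on the growth factor receptor Flt3 and the transcription factor Irf4, and in mice carries C-type lectins such as Cd209a, Clec10a and Mgl2, while the type 1 branch carries Xcr1 and Clec9a and specialises in presentation to CD8 T cells. In inflamed tissue, monocytes can take on some of the same genes, Cd209a among them. Cd209a encodes a relative of human DC-SIGN, a lectin that binds sugars on microbes and cells, and lies on the minus strand of chr8:3743397-3748984 (mm10), close to its paralog Cd209d at chr8:3871824-3878555. Clec10a (chr11:70156197-70170834) and Mgl2 (chr11:70130329-70137550) encode the galactose-type lectins CD301a and CD301b and are neighbours on the plus strand, and Flt3 lies on the minus strand of chr5:147330741-147400489.

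The libraries held 51054446, 63434265 and 51463909 UMIs in allografts 1 to 3 and 100038951 in the isograft, in 4983, 8215, 6311 and 11386 passing cells. Pairs of libraries shared 14 to 31 cell barcodes. Members summed to 20409, 7639 and 55909 UMIs in allografts 1 to 3 and 364287 in the isograft, so that 1 UMI equalled 49.0, 131 and 17.9 CPM (UMIs of a gene scaled by the class total, the usual depth-scaled level) in the allografts and 2.75 CPM in the isograft. The median member had 10204.5 UMIs in allograft 1, 7639 in allograft 2 (1 cell), 8417 in allograft 3 and 5357.5 in the isograft. Every allograft level below therefore rests on few molecules, and levels in allograft 2 on 1 cell. Counts in a class were summed per library, and a lower sum of a transcript cannot tell fewer cells carrying it from less RNA in each.

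The members were chosen by their own UMI counts of the gate genes, Cd209a first, and these values are given as description with no test. Members carried a median of 8, 4 and 3 Cd209a UMIs in allografts 1 to 3 and 6 in the isograft, where the range was 2 to 24. Exactly 2 UMIs were found in 0, 0 and 3 members of the allografts and in 13 of the isograft, and cells just outside the gate, with 1 UMI and every other clause met, numbered 2, 1 and 10 in the allografts and 23 in the isograft. Of the 23, 3 had a Flt3 UMI and 10 a Clec10a UMI, against 6 and 7 of the 13. Cells with at least 2 Cd209a UMIs that failed another clause were few: of 5, 2 and 9 such cells in the allografts, the C1q clause removed 2, 1 and 0, and of 67 in the isograft it removed 8. Among endothelial cells, which should lack the gene, 0 of 187, 0 of 484 and 0 of 349 in the allografts and 2 of 981 in the isograft had a Cd209a UMI.

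Members were scarcer in the allografts. They made up 0.0401% of passing cells in allograft 1 (95% exact Clopper-Pearson interval 0.00486 to 0.145), 0.0122% in allograft 2 (0.000308 to 0.0678) and 0.111% in allograft 3 (0.0446 to 0.228), against 0.457% in the isograft (0.341 to 0.598). The isograft interval lay above all 3 allograft intervals, which cover counting error only. The allografts averaged 0.0544% ± 0.0509 (SD, n = 3), a difference of -0.402 percentage points, and an exact two-sided permutation test over libraries gave p = 0.25, the smallest that 3 against 1 allows. Set against monocytes of the same library there were 0.128, 0.0498 and 0.889 members per 100 monocytes in the allografts and 11.6 in the isograft. The mean log2 difference was -6.02 (exact p = 0.25, two-sided), with 1559, 2007 and 787 monocytes in the allografts and 448 in the isograft. A monocyte here had at least 3 UMIs of Csf1r, Fcgr1 and Cd68 together, at least 2 of Ccr2 and Ly6c2 together and none of Cd209a. The number of such cells depended on depth: with cells thinned at random to 2000 UMIs, it was 157, 213 and 101 in the allografts and 48 in the isograft. There were then 1.27, 0 and 1.98 members per 100 monocytes in the allografts and 70.8 in the isograft.

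**Figure D1:**
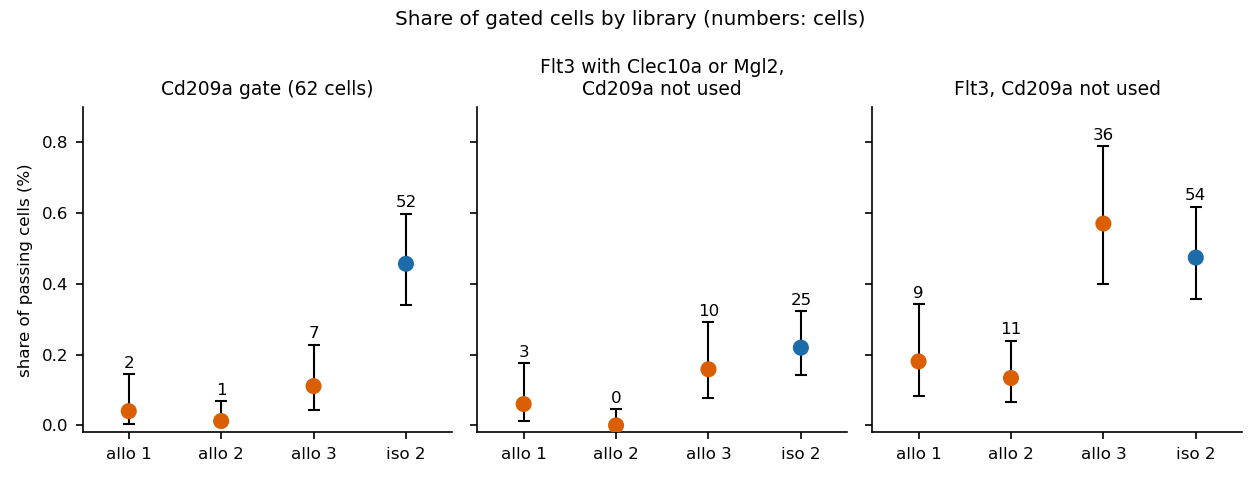
Share of passing cells (percent, y axis) by library, for the Cd209a gate and for the gates that replace Cd209a by Flt3 with Clec10a or Mgl2, or by Flt3 alone; bars are 95% exact binomial intervals and numbers are cells. The isograft is highest at 52 cells with the Cd209a gate, and with Flt3 alone allograft 3 (36 cells, 0.570%) lies above it (54 cells, 0.474%).

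The size of the difference depended on which gene defined the cell. Gates chosen after the data were seen kept every other clause and put Flt3 with Clec10a or Mgl2 in place of Cd209a. They held 3, 0 and 10 cells in the allografts and 25 in the isograft, that is 0.0602%, 0% and 0.158% against 0.220%, and the 0 cells of allograft 2 allow a share of up to 0.0365% by a floor of 3 counts (exact limit 0.0449%). The isograft was still the highest library, with a difference of -0.147 percentage points (exact two-sided permutation p = 0.25). With Flt3 alone the shares were 0.181%, 0.134% and 0.570% in the allografts and 0.474% in the isograft, so the groups overlapped (exact p = 1). Of these Flt3 cells, 6 of 9, 11 of 11 and 31 of 36 in the allografts and 28 of 54 in the isograft had no Cd209a UMI. Siglech, a marker of plasmacytoid dendritic cells, was seen in 1, 3 and 4 of them in the allografts and in 1 in the isograft.

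The label was checked against dendritic markers that the gate did not use. In the allografts 5 of 10 members and in the isograft 28 of 52 had a UMI of Flt3 or of Zbtb46, a transcription factor of conventional dendritic cells. Clec10a or Mgl2 was seen in 9 of 10 allograft and 39 of 52 isograft members, and any of the 4 genes in 9 of 10 and 48 of 52. Single genes were seen in fewer cells: Flt3 in 2 of 2, 0 of 1 and 2 of 7 members of allografts 1 to 3 and in 44.2% of isograft members, and Irf4 in 1 of 10 and 6 of 52. Allograft members were deeper (median 8520.5 against 5357.5 UMIs), so these shares are not like for like. In cells thinned to 2000 UMIs, Flt3 was seen in 0 of 2, 0 of 1 and 1 of 6 allograft members. It was seen in 13 of 50 isograft members. Zbtb46 was then seen in 1 of 2, 0 of 1 and 0 of 6, against 4 of 50. Clec10a was seen in 1 of 2, 1 of 1 and 3 of 6, against 24 of 50. Mgl2 was seen in 1 of 2, 0 of 1 and 1 of 6, against 14 of 50. In endothelial cells, whose median depth was 8644, 6229 and 4207 UMIs in the allografts and 5694 UMIs in the isograft, Flt3 was seen in at most 0.535% of cells and Clec10a in at most 1.45%. Zbtb46, which endothelium also expresses, was seen there in 43.3%, 34.3% and 29.5% in the allografts and 22.9% in the isograft. Monocytes had a median depth of 13382, 10462 and 9835 UMIs in the allografts and 7580.5 UMIs in the isograft. Clec10a was seen in 15.3%, 12.3% and 9.28% of allograft monocytes and in 10.3% of isograft monocytes. Mgl2 was seen in at most 8.48% of monocytes and Flt3 in at most 4.02%, both in the isograft. Genes of the monocyte line were also present: Csf1r, Fcgr1 or Ly6c2 was seen in 7 of 10 allograft and 22 of 52 isograft members, and 3 and 11 of these also had Flt3 or Zbtb46. Ly6c2, the marker of classical monocytes, was seen in 6 of 10 allograft members and in 1 of 52 isograft members. Endothelial cells had a Ly6c2 UMI in 11.8%, 7.44% and 4.01% in the allografts and in 1.22% in the isograft, so the isograft share is near that of cells without the gene. The macrophage gene Adgre1 was seen in 0 of 10 and 2 of 52 members. Most members thus carried a type 2 dendritic transcript. Monocyte transcripts were carried by most allograft members and by some isograft members. Csf1r, Fcgr1 or Ly6c2 without Flt3 and Zbtb46 was seen in 4 of 10 allograft and 11 of 52 isograft members.

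The monocytes used for comparison were not alike in the 2 graft types. Ly6c2 was seen in 94.0% to 95.7% of allograft monocytes and in 22.5% of isograft monocytes. The summed level of a list of 16 macrophage genes was 1359, 1353 and 1929 CPM in allograft monocytes and 9268 CPM in isograft monocytes. Single macrophage genes did not all follow this sum. In monocytes thinned to equal depth, C1qa was seen in 64.2%, 63.6% and 31.9% in the allografts and 44.1% in the isograft, so the groups overlapped. Adgre1 was then seen in 16.1%, 14.5% and 9.73% in the allografts and 18.1% in the isograft.

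**Figure D2:**
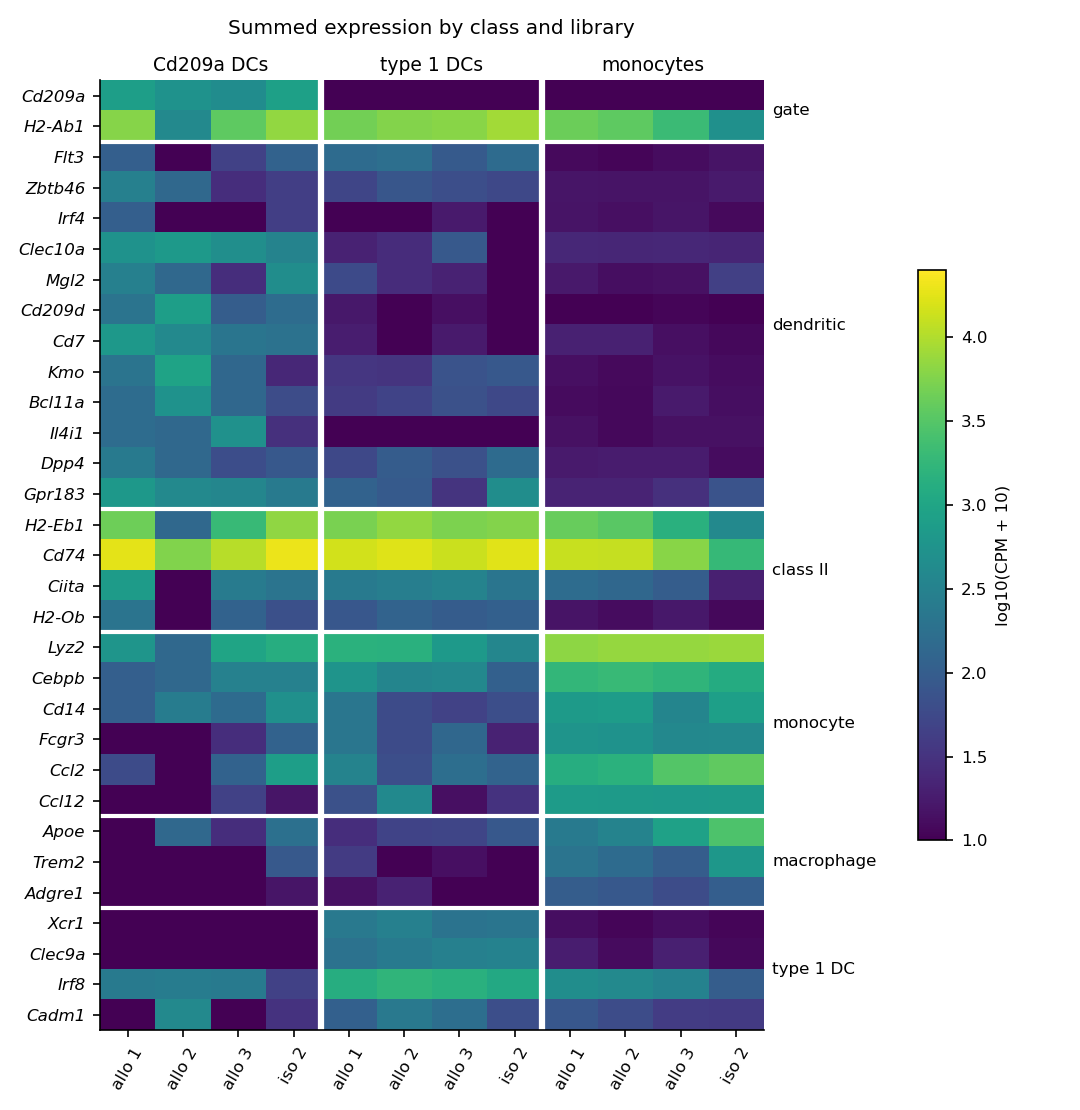
Summed expression (log10 of CPM + 10, colour) of gate genes and of dendritic, class II, monocyte, macrophage and type 1 dendritic genes in Cd209a dendritic cells, type 1 dendritic cells and monocytes of each library. Clec10a, Cd209d and Cd7 stand out in the Cd209a columns, Irf8 in the type 1 columns (1129.6 to 1668 CPM) and Lyz2 in the monocyte columns (6715 to 7838 CPM).

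Against monocytes of the same library, Cd209a dendritic cells had higher levels of type 2 dendritic genes and lower levels of monocyte, macrophage and chemokine genes. With edgeR's quasi-likelihood test, library as a block and Benjamini-Hochberg adjustment over 11453 genes, 718 passed an adjusted p of 0.05 (6.27% of genes tested), 194 higher (1.69%) and 524 lower (4.58%). Genes of either gate were left out. The scaling (TMM) set the median of all genes at -0.42 on the log2 scale, and scaling by total counts alone, tried after the data were seen, set it at -0.05 with 361 genes higher and 339 lower. Of 33 tested genes of a type 2 dendritic list, 16 rose and 2 fell, with a median log2 difference of 1.57. Leaving out 1 library at a time, the number of all calls was 185, 373 and 363 without allografts 1, 2 and 3 and 304 without the isograft, and the type 2 list had 13, 17, 12 and 8 rises. With total-count scaling 22 of the 33 rose and 0 fell by edgeR. The 2 that fell were Sirpa, a signal-regulatory receptor that type 2 dendritic cells share with monocytes, and the lectin Clec12a. Sirpa had 147, 0 and 125 CPM in Cd209a dendritic cells of the allografts and 135 CPM in those of the isograft, against 202 to 406 CPM in monocytes (-1.62 ± 0.52, edgeR adjusted p = 0.0328), and lost its call whichever library was left out (edgeR adjusted p of 0.0566 to 0.353). Clec12a had 0, 0 and 143 CPM and 85.1 CPM, against 161 to 287 CPM (-1.74 ± 0.53, edgeR adjusted p = 0.0232), and lost its call without allograft 1, 2 or 3 (edgeR adjusted p = 0.388, 0.106 and 0.0925).

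Several lectins rose. Clec10a had 539, 655 and 465 CPM in Cd209a dendritic cells of allografts 1 to 3 and 318 CPM in those of the isograft, against 13.8, 12.9, 13.9 and 12.7 CPM in the monocytes of the same libraries. The level was higher in Cd209a dendritic cells in every library, by 4.46 ± 0.48 (SE) on the log2 scale (edgeR adjusted p = 1.48e-17). Mgl2 had 294, 131 and 17.9 CPM in the allografts and 456 CPM in the isograft, against 7.21, 3.56, 4.34 and 34.2 CPM in monocytes (3.58 ± 0.58, edgeR adjusted p = 2.17e-07). Its isograft level was uneven among cells: 106 of 166 UMIs came from 4 of 52 members, with up to 51 in 1 cell. Cd209d had 196, 785 and 89.4 CPM in the allografts and 148 CPM in the isograft and at most 1.27 CPM in monocytes (8.50 ± 0.61, edgeR adjusted p = 7.44e-40). As a close paralog of the gate gene it may share reads with Cd209a, so its difference is uncertain. Of 15 tested C-type lectins 4 rose, Clec4b1 (2.43 ± 0.57; 2.20 and edgeR adjusted p = 0.602 without the isograft) being the other. Of the 5 that fell, Clec4e (-2.98 ± 0.60), which senses mycobacterial glycolipid, kept its call without any 1 library. Clec7a, the beta-glucan receptor Dectin-1, fell by 2.06 on the log2 scale and lost its call without allograft 1, 2 or 3 (-1.65, -1.69 and -2.01, edgeR adjusted p = 0.347, 0.0816 and 0.177).

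Receptors, transcription factors and surface molecules of dendritic cells followed. Flt3 had 98.0, 0 and 35.8 CPM in Cd209a dendritic cells of the allografts and 107 CPM in those of the isograft, against 2.35, 1.17, 3.07 and 5.00 CPM in monocytes. Allograft 2, with 1 cell, was the library with no Flt3 UMI; the log2 difference was 4.02 ± 0.47 (edgeR adjusted p = 1.00e-14), and without the isograft 3.57 (edgeR adjusted p = 0.0568). Zbtb46 had 294, 131 and 17.9 CPM in the allografts and 32.9 CPM in the isograft, against 5.49, 5.05, 4.98 and 7.71 CPM in monocytes (2.69 ± 0.46). Irf4 had 98.0, 0 and 0 CPM and 32.9 CPM, against 2.29 to 5.40 CPM in monocytes (2.90 ± 0.49), and its call was lost without the isograft (1.59, edgeR adjusted p = 0.677). Cd7, an immunoglobulin-family surface protein, had 637, 393 and 197 CPM in the allografts and 184 CPM in the isograft, against 1.88 to 10.7 CPM in monocytes (5.26 ± 0.47, edgeR adjusted p = 4.71e-26). Bcl11a, a transcription factor needed for dendritic and B cell development, rose by 4.26 ± 0.44 and Dpp4, the peptidase CD26, by 3.66 ± 0.47. The sterol-guided homing receptor Gpr183 rose by 3.34 ± 0.48. Cd7, Bcl11a, Dpp4 and Gpr183 kept their calls without any 1 library.

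Enzymes and co-stimulatory ligands gave further differences. Il4i1, a secreted amino acid oxidase, had 147, 131 and 519 CPM in Cd209a dendritic cells of the allografts and 19.2 CPM in those of the isograft, against 1.94 to 4.17 CPM in monocytes (4.69 ± 0.48, edgeR adjusted p = 1.78e-19). Kmo, the kynurenine monooxygenase of tryptophan breakdown, had 196, 916 and 125 CPM and 13.7 CPM, against 2.10 to 4.66 CPM (4.35 ± 0.44). For both genes all 3 allografts lay above the isograft in Cd209a dendritic cells, but neither passed the test between grafts described below (edgeR adjusted p = 0.0723 and 0.216), although Il4i1 was called there when allograft 1 or 2 was left out. Of 11 co-stimulatory ligands Tnfsf4 (OX40 ligand, 4.22 ± 0.43) and Icosl (2.04 ± 0.49) rose and 9 did not pass. Icosl lost its call without the isograft (1.64, edgeR adjusted p = 0.671), and Tnfsf4 was read at 0, 0 and 71.5 CPM in the allografts and 46.7 CPM in the isograft. Cd86 was at 882, 0 and 447 CPM in the allografts and 371 CPM in the isograft, against 511, 464, 401 and 183 CPM in monocytes, and did not pass.

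The antigen presentation genes split. H2-Ob and H2-Oa, the chains of the H2-O molecule that tempers peptide loading in dendritic and B cells, rose by 4.19 ± 0.43 (edgeR adjusted p = 9.08e-19) and 3.22 ± 0.53 (edgeR adjusted p = 3.41e-07), and H2-DMb2 of the loading molecule H2-DM by 2.35 ± 0.49 (1.15 and edgeR adjusted p = 0.589 without the isograft). H2-Oa lost its call without the isograft and with DESeq2, while H2-Ob kept its call in both. The proteases Ctss (-1.61 ± 0.41) and Lgmn (-2.34 ± 0.53) fell. Ctss lost its call without allograft 1, 2 or 3 (-1.54, -1.09 and -1.85, edgeR adjusted p = 0.374, 0.223 and 0.0557), and Lgmn without allograft 1 (-2.41, edgeR adjusted p = 0.0712). Ciita, the transactivator of class II genes, rose by 1.71 ± 0.49, a call lost without allografts 1 or 3 or the isograft (1.66, 1.85 and 0.75, edgeR adjusted p = 0.290, 0.169 and 0.643). Over the 12 class II presentation genes tested, 4 rose, 2 fell and 6 did not pass, with a median of 0.42. With total-count scaling 8 rose, and without the isograft 1 rose, while without allograft 1, 2 or 3 there were 0, 1 and 1 falls. The gate asked class II transcripts of members and not of monocytes, so genes co-expressed with H2-Aa and H2-Ab1 are not independent of the choice of cells.

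Monocyte and macrophage genes were lower. Lyz2, the lysozyme of myeloid cells, had 588, 131 and 948 CPM in Cd209a dendritic cells of the allografts and 1309 CPM in those of the isograft, against 6715, 7258, 7376 and 7838 CPM in monocytes. The ranges were far apart (-3.93 ± 0.40, edgeR adjusted p = 4.07e-19), although 365 of the 477 isograft UMIs came from 4 members. Cebpb, a myeloid transcription factor, fell by 3.31 ± 0.48. Of 16 tested monocyte genes 10 fell and 1 rose. Without allografts 1, 2 and 3 there were 6, 9 and 5 falls among the monocyte genes, and 7 without the isograft. Of 12 macrophage genes 8 fell, against 5 without allograft 1 and 3 of 13 without the isograft, with Apoe at -4.52 ± 0.63, and the phosphatidylserine receptor Timd4 rose (2.91 ± 0.53). The activating Fc receptors Fcgr3 (-3.40 ± 0.59) and Fcgr4 (-3.55 ± 0.73) fell, Fcgr4 without a call when allograft 3 was left out (-2.93, edgeR adjusted p = 0.0508). Members were limited to 5 C1q UMIs and 1 Cd3 UMI and monocytes were not, so the falls of macrophage genes and of 7 of 13 T and NK genes are partly set by the gates.

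Other groups of genes moved in part. Of 25 tested transcription factors of dendritic cells 5 rose and 3 fell. Besides Zbtb46, Irf4 and Bcl11a, the signal transducer Stat5a rose, with 245, 524 and 71.5 CPM in Cd209a dendritic cells of the allografts and 19.2 CPM in those of the isograft, against 10.8 to 21.1 CPM in monocytes (1.93 ± 0.51). It lost its call without allograft 1 or 2 (1.68 and 1.66, edgeR adjusted p = 0.204 and 0.143). Id2, an inhibitor of E-protein factors that dendritic cells and monocytes both use, had 0, 0 and 17.9 CPM in the allografts and 170.2 CPM in the isograft, against 346 to 491 CPM in monocytes, lower in every library (-2.94 ± 0.58, edgeR adjusted p = 5.13e-05). Of 17 homing receptors 3 rose, Gpr183 among them, and 2 fell. Of the falls, Ccrl2, an atypical receptor that binds chemerin, had 147, 0 and 125 CPM in the allografts and 351 CPM in the isograft, against 537 to 907 CPM in monocytes (-2.51 ± 0.52; -2.42 and edgeR adjusted p = 0.0785 without allograft 1). Of 19 genes of glycolysis and hypoxia 7 fell and none rose. The glycolytic enzyme gene Gapdh had 637, 1178 and 1002 CPM in the allografts and 1329 CPM in the isograft, against 1894 to 2867 CPM in monocytes, with no overlap (-1.90 ± 0.42; -1.65 and edgeR adjusted p = 0.287 without allograft 1). Class I presentation differed little in calls: of 20 genes 1 fell, B2m, the class I light chain (-1.23 ± 0.40), and it lost the call whichever 1 of the 4 libraries was left out (edgeR adjusted p of 0.0502 to 0.478).

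Many inflammatory chemokines were lower in Cd209a dendritic cells than in monocytes, though not all. Of 17 chemokines 10 fell and none rose, and 6 fell without allograft 1. Ccl4, a chemokine of activated myeloid and T cells, was among the 7 without a call and abundant in both classes, with 2352, 131 and 3685 CPM in Cd209a dendritic cells of the allografts and 5539.6 CPM in those of the isograft, against 1470.3, 1397, 3887 and 5749.6 CPM in monocytes. Ccl2, which draws monocytes through Ccr2, had 49.0, 0 and 107 CPM in the allografts and 788 CPM in the isograft, against 1293, 1469.6, 3091 and 3719.6 CPM in monocytes (-4.21 ± 0.51, edgeR adjusted p = 1.21e-13). Ccl12, its close relative, had 0, 0 and 35.8 CPM and 5.49 CPM, against 673 to 715 CPM (-6.44 ± 0.75), and Ccl7 had no UMI in allograft members and 110 CPM in isograft members, against 607 to 1715 CPM (-5.14 ± 0.63). Slpi, a protease inhibitor (-6.80 ± 0.96), and S100a9, an alarmin of neutrophils and monocytes (-6.39 ± 1.01), also fell, each on 1 UMI in all 62 members. Of 22 cell cycle genes 14 fell and none rose, but 3 fell without allograft 1 and 1 without the isograft. Mki67 was seen in 1 of 10 allograft and 5 of 52 isograft members, and its fall (-2.11 ± 0.71, edgeR adjusted p = 0.0464) did not pass in any fit that left out a library. Slc11a1, an iron transporter of phagosomes, Cfb, Nos2 and Batf2 had no UMI in any of the 62 members, against 39.8 to 261 CPM for Slc11a1 in monocytes. Their fitted differences are not bounds and are not given.

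**Figure D3:**
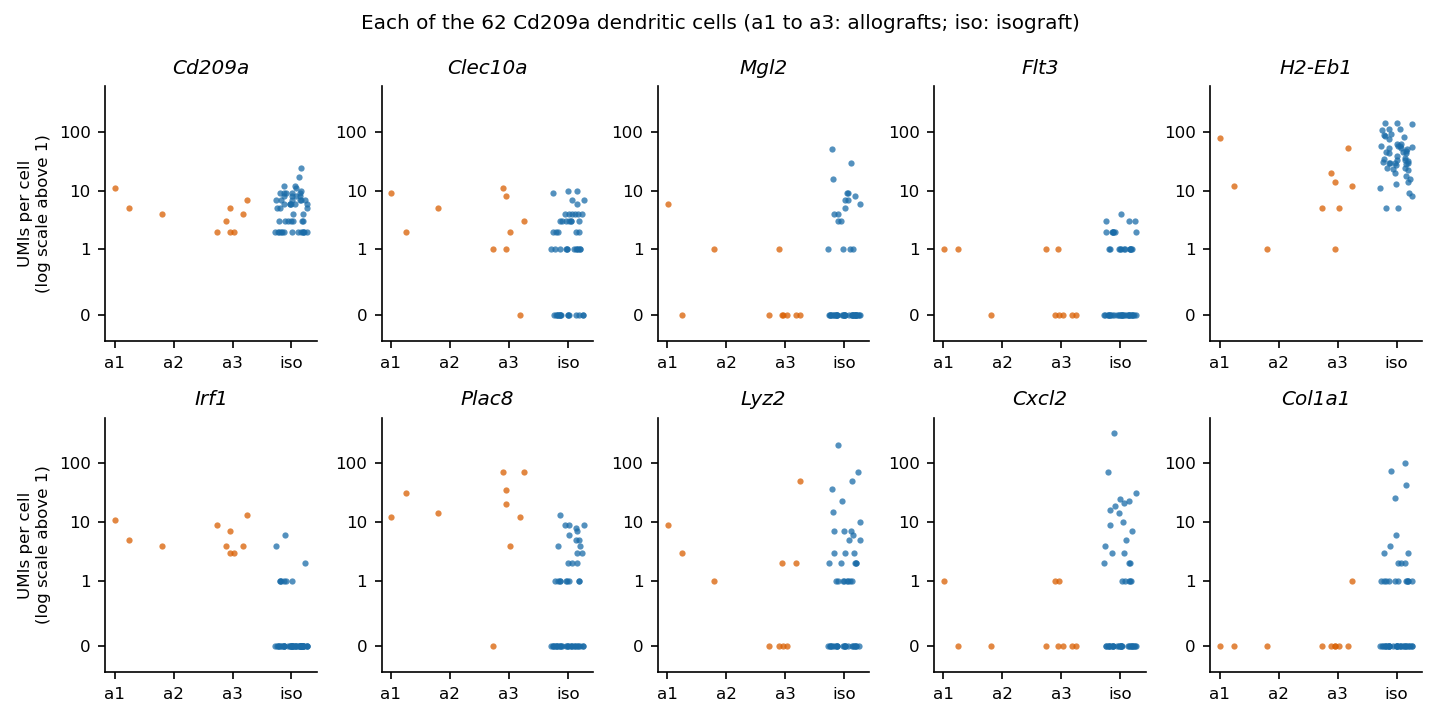
UMIs per cell (y axis, logarithmic above 1) of 10 genes in each of the 62 Cd209a dendritic cells, by library (a1 to a3: allografts, iso: isograft). Irf1 is seen in 10 of 10 allograft and 9 of 52 isograft cells, and Col1a1, Cxcl2 and Lyz2 reach high values in a few isograft cells.

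Between grafts, Cd209a dendritic cells of the allografts had higher levels of some interferon-gamma response genes. They had lower levels of the cytokine genes Il1b and Ifnb1, of neutrophil and monocyte chemokines and of some stromal transcripts. The called genes of these groups passed the filter on low counts only through the graft type where they were high. That filter thus partly set these directions. Of 1128 genes that passed the filter on low counts, 42 passed edgeR's quasi-likelihood test (adjusted p of 0.05, 3.72% of genes tested), 11 higher (0.975%) and 31 lower (2.75%). The lone isograft library was assumed to vary like the allografts. Scaling by total counts gave 22 higher and 29 lower, with the median of all genes at 0.39 in place of 0.06. The calls rested on allograft 3, which held 7 of the 10 cells: without it 0 of 572 genes passed edgeR's test, with 46 at an unadjusted p under 0.05. Of the 42 genes, 32 were still tested there, all with the same direction. Some log2 differences stayed near their size, such as 3.47 for Irf1 (3.52 with all libraries), 3.16 for Ly6e (3.02), 2.54 for Plac8 (2.96) and -3.48 for Il1b (-3.39). Others moved far, such as -10.26 for Col3a1 (-4.20 with all libraries), -11.36 for Sparc (-6.41) and -10.07 for Dcn (-6.56). Col3a1, Sparc and Dcn had no UMI in members of allografts 1 and 2, so their fitted values without allograft 3 are no bounds. Without allograft 1 or 2 there were 31 and 62 calls, of which 28 and 40 were among the 42, and DESeq2 called 13, all among the 42.

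Interferon-gamma is the T and NK cell cytokine that switches on antigen presentation and antimicrobial genes, in part through the transcription factor IRF1. Of 28 genes of the list 11 passed the filter and 5 rose, with none lower; the 17 that did not pass the filter had too few UMIs. Of the 5, Iigp1, Serpina3g, Cxcl9 and Gbp2b had at most 1 isograft UMI, and Irf1 had 49.4 CPM there. All 5 entered the test through the allografts alone, so the count over the tested genes shows no direction of the list. Leaving out allograft 1 gave 3 rises among 10 genes tested, leaving out allograft 2 gave 8 among 13, and leaving out allograft 3 gave 0 among 5. Total-count scaling gave 7 among the 11. Irf1, the transcription factor, had 784, 524 and 769 CPM in Cd209a dendritic cells of the allografts and 49.4 CPM in those of the isograft. All 3 allografts lay above the isograft, a log2 difference of 3.52 ± 0.91 (edgeR adjusted p = 0.00436). Without allograft 1 it was 3.33 and did not pass (edgeR adjusted p = 0.144). The rise was present cell by cell, with 3 to 13 UMIs in each of the 10 allograft members and a UMI in 9 of the 52 isograft members, although the allograft cells were also deeper. Pooled over cells the ratio was 15.2 (exact interval 8.88 to 27.3, counting error only).

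Iigp1, an immunity-related GTPase, had 735, 393 and 322 CPM in the allografts and no UMI in the isograft. It was seen in 7 of 10 and 0 of 52 members, at least 52.1-fold higher with the isograft set at a floor of 3 counts (edgeR adjusted p = 1.71e-06). Cxcl9, a chemokine that draws activated T cells through Cxcr3, had 784, 0 and 1019.5 CPM in the allografts, against 2.75 CPM from 1 UMI in the isograft. The single cell of allograft 2 had none, and the pooled ratio was 317 with an exact interval of 55.1 to 12680 (edgeR adjusted p = 6.06e-07). The guanylate-binding protein gene Gbp2b had 245, 0 and 447 CPM in the allografts against 2.75 CPM in the isograft (pooled ratio 130, exact interval 21.6 to 5311, edgeR adjusted p = 0.0172). Serpina3g, an inhibitor of cathepsins, had 441, 0 and 215 CPM in the allografts against no UMI in the isograft, at least 30.4-fold higher by the same floor (edgeR adjusted p = 0.0409). Of the 5, Cxcl9, Gbp2b and Iigp1 also passed without allograft 1, and Cxcl9 and Iigp1 with DESeq2. Gbp2 (490.0, 393 and 215 CPM against 16.5 CPM) and Psmb9 (1127, 1178 and 787 CPM against 151 CPM) did not pass, although both were above the isograft in all 3 allografts. Without allograft 2 Gbp2 (3.88) passed (edgeR adjusted p = 0.0122). The whole list summed to 7203, 1833 and 7029 CPM in the allografts and 848 CPM in the isograft. Of its 309 isograft UMIs, 211 were of the chemokine gene Cxcl10, seen in 17 of 52 isograft members. Cxcl10 was seen in 6 of 10 allograft members, with 80 UMIs in total and none in allograft 2. In the members of allografts 1 and 3 Cxcl9 UMIs outnumbered those of the monocyte gene Lyz2 (16 against 12 and 57 against 53), while in monocytes of these libraries Lyz2 was the higher (6715 and 7376 CPM against 2837 and 3012 CPM). Summed T and NK transcripts of members were 147, 262 and 89.4 CPM in the allografts and 65.9 CPM in the isograft, and B and plasma cell transcripts 490.0, 262 and 125 CPM and 90.6 CPM, from at most 10 UMIs per allograft, and their part in the result was not tested.

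Promoters of the 11 genes that rose were searched for the gamma-activated site (TTCNNNGAA) and for the interferon-stimulated element (GAAANNGAAA), both strands, in the 250 bases before the start of transcription. Of the 11, 8 had a RefSeq promoter entry (GRCm38.p6), and 3 held a match, which are shown here because their genes belong to the rising interferon list; capitals mark the match.
Irf1, chr11:53769764-53770013, plus strand: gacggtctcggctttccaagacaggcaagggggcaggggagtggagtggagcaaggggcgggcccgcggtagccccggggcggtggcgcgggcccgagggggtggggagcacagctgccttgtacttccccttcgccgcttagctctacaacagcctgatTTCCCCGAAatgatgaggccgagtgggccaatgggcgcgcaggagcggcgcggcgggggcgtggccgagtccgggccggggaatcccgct
Serpina3g, chr12:104235897-104236146, plus strand: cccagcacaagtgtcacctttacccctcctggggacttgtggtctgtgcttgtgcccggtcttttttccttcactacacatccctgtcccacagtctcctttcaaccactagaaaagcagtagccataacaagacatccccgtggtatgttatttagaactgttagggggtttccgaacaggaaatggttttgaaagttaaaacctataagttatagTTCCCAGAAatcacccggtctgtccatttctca
Gbp2b, chr3:142594597-142594846, plus strand: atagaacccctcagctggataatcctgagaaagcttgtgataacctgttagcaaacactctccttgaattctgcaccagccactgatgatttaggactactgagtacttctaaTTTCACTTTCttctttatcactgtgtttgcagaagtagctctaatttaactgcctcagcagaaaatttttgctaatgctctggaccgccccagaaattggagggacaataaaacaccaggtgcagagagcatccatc
The Irf1 and Serpina3g matches are gamma-activated sites that begin 90 and 33 bases before the start, the first in 1 of 2 Irf1 entries, and the Gbp2b match is an interferon-stimulated element on the other strand that begins 137 bases before it. Among 32851 promoter entries, 7.02% held the first motif and 2.98% the second in the same window. A match describes the letters and is no evidence of binding.

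The other 6 genes that rose were not on the interferon-gamma list, and 5 of them are described. Plac8, a small cysteine-rich protein found in plasmacytoid cells and monocytes, had 2107, 1833 and 3828 CPM in the allografts and 275 CPM in the isograft, all 3 allografts higher (2.96 ± 0.82, edgeR adjusted p = 0.0102). It was seen in 9 of 10 and 25 of 52 members, and without allograft 1 did not pass (2.98, edgeR adjusted p = 0.654). AW112010, an interferon-induced transcript, had 735, 785 and 501 CPM against 2.75 CPM from 1 UMI, a pooled ratio of 213 (exact interval 36.4 to 8567). Ly6e, a lipid-anchored surface protein, had 637, 655 and 537 CPM against 57.6 CPM (3.02 ± 0.93), and Aff3, a nuclear factor of lymphoid cells, 882, 262 and 233 CPM against 41.2 CPM (3.13 ± 0.94). Abhd17b, a depalmitoylating enzyme, had 441, 1702 and 197 CPM against 41.2 CPM (3.43 ± 0.96). Without allograft 1, Ly6e (2.84), Aff3 (2.10) and Abhd17b (3.49) did not pass, nor did Abhd17b without allograft 2 (2.45), with edgeR adjusted p of 0.309, 0.998, 0.130 and 0.191. Of these 6 genes DESeq2 called AW112010. AW112010, Ly6e, Aff3 and Abhd17b passed the low-count filter through the allografts alone. Summed plasmacytoid transcripts (8 genes) were 784, 1702 and 286 CPM in the allografts and 233 CPM in the isograft, and the marker Siglech was seen in 1 of 2 members of allograft 1, in the single member of allograft 2, in 0 of 7 members of allograft 3 and in 0 of 52 isograft members. Their part in these rises was not tested.

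Genes of class I presentation and of the type I interferon response gave no call between grafts with TMM scaling. Of 12 tested class I genes 0 passed edgeR's test, with 5 at an unadjusted p under 0.05 and none by DESeq2. With total-count scaling, which put the median of all genes at 0.39, Psmb8, Psmb9, Psmb10 and Psme2 of this list and Bst2 of the type I list rose. Psmb9 also rose with the RLE scaling of DESeq2 (2.40), and Tap1, a subunit of the peptide transporter, when allograft 2 was left out. Psmb8, a subunit of the immunoproteasome, had 1813, 3273 and 1753 CPM in the allografts and 522 CPM in the isograft, all 3 allografts higher (1.69 ± 0.75, edgeR adjusted p = 0.308; 2.07 and 0.0397 with total-count scaling). Of 30 type I interferon genes 5 could be tested and 0 passed edgeR's test (2 at an unadjusted p under 0.05, none by DESeq2). Bst2, the antiviral protein tetherin, had 1274, 1702 and 698 CPM in the allografts and 219.6 CPM in the isograft (2.01 ± 0.77, edgeR adjusted p = 0.157). Of 15 tested immediate-early and heat shock genes, which respond fast to stimulation and stress, 0 passed edgeR's test (4 at an unadjusted p under 0.05, none by DESeq2). Fos, one of them, had 147, 262 and 715 CPM against 1136 CPM, below the isograft in all 3 allografts (-1.67 ± 0.66, edgeR adjusted p = 0.176).

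**Figure D4:**
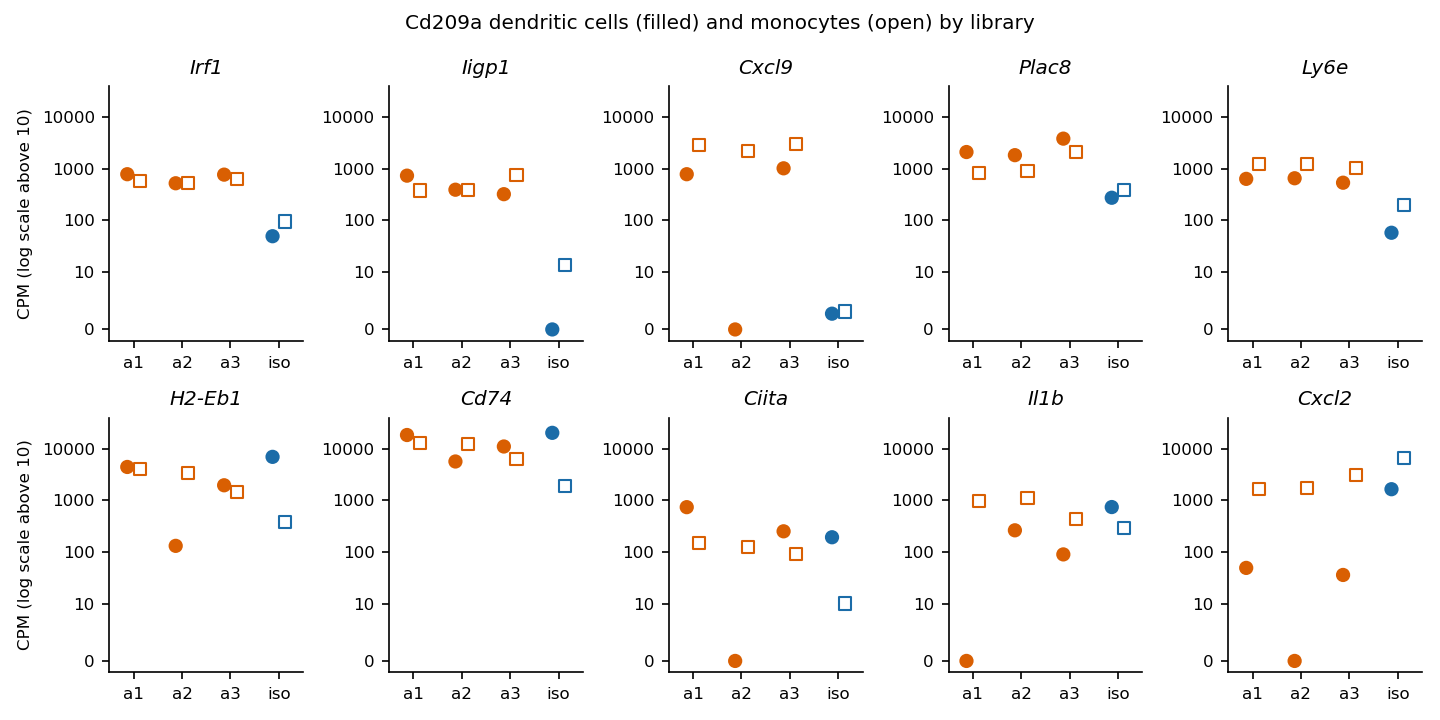
CPM (y axis, logarithmic above 10) of 10 genes in Cd209a dendritic cells (filled circles) and monocytes (open squares) of allografts 1 to 3 (a1 to a3) and the isograft (iso). Irf1, Plac8 and Ly6e are higher in all 3 allografts in both classes, while H2-Eb1 and Cd74 are highest among the filled circles in the isograft and lowest among the open squares there.

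Several inflammatory genes were lower in the allografts. Il1b, Ifnb1, Cxcl2, Ccl2 and Cxcl1 passed the low-count filter through the isograft alone, so their shared fall shows no direction of such genes. Il1b, the interleukin-1 beta gene, had 0, 262 and 89.4 CPM in Cd209a dendritic cells of the allografts and 738 CPM in those of the isograft. All 3 lay below the isograft (-3.39 ± 0.84, edgeR adjusted p = 0.00267), where 29 of 52 cells had a UMI and 1 cell had 78. Without allograft 1 it was -2.95 and did not pass (edgeR adjusted p = 0.207). Ifnb1, the gene of interferon beta, had 0, 0 and 17.9 CPM against 425 CPM, 1 UMI in 10 cells against 155 UMIs in 16 of 52 cells (pooled ratio 0.0280, exact interval 0.000704 to 0.158, edgeR adjusted p = 0.00642). Cxcl2, a neutrophil chemokine, had 49.0, 0 and 35.8 CPM against 1636 CPM (pooled ratio 0.0218, exact interval 0.00449 to 0.0641, edgeR adjusted p = 1.08e-08), and 325 of its 596 isograft UMIs were in 1 cell. Ccl2 had 49.0, 0 and 107 CPM against 788 CPM (-3.60 ± 0.84; -3.52 and edgeR adjusted p = 0.0694 without allograft 1), and 220 of its 287 isograft UMIs were in 4 cells that also carried collagen transcripts. Cxcl1, which also draws neutrophils, had no UMI in allograft members and 497 CPM in the isograft, at least 13.9-fold lower with the allografts together set at 3 counts, and 173 of its 181 UMIs were in 4 cells.

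Stromal transcripts were lower in allograft than in isograft members, where a few cells held most of the collagen UMIs. Of 12 genes of the stromal and muscle list 5 passed the low-count filter, through the isograft, and these fell, so the count shows no direction of the list. Among them were Sparc (pooled ratio 0.0145, exact interval 0.00298 to 0.0424), Dcn (0.0118, 0.000297 to 0.0659) and Col1a1 (0.0156, 0.000392 to 0.0874). The list of 12 genes summed to 49.0, 131 and 233 CPM in members of the allografts and 6289 CPM in members of the isograft, where 246 of 279 Col1a1 UMIs, or 88.2%, were in 4 cells with 13960 to 30065 UMIs each. The same list summed to 849, 1070.4 and 6019 CPM in allograft monocytes and 9529 CPM in isograft monocytes. Tagln, a smooth muscle gene and the leading fall, had 492 of its 558 isograft UMIs in 1 cell and none in the allografts. Members with under 10 Col1a1 UMIs, an alternative chosen after the data were seen, gave 30 calls, 11 higher and 19 lower. Of these, 24 were among the 42, with 9 of the 11 rises, and Sparc passed (-4.27). The alternative selects on Col1a1 itself, only 29 of the 42 genes were still tested, and the other 4 stromal genes were below the filter. Cxcl2, Il1b and Ifnb1 still passed, and the 4 cells held no UMI of Il1b or Ifnb1, while Ccl2 fell below the low-count filter. Removing the cells with the top doublet scores (Scrublet) took out 4 isograft members, 3 of them among the 4 collagen-rich cells, and no allograft member. It gave 35 calls, 11 higher and 24 lower, of which 30 were among the 42, with 4 of the 5 stromal genes still called. The part of free RNA in these transcripts was not tested.

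**Figure D5:**
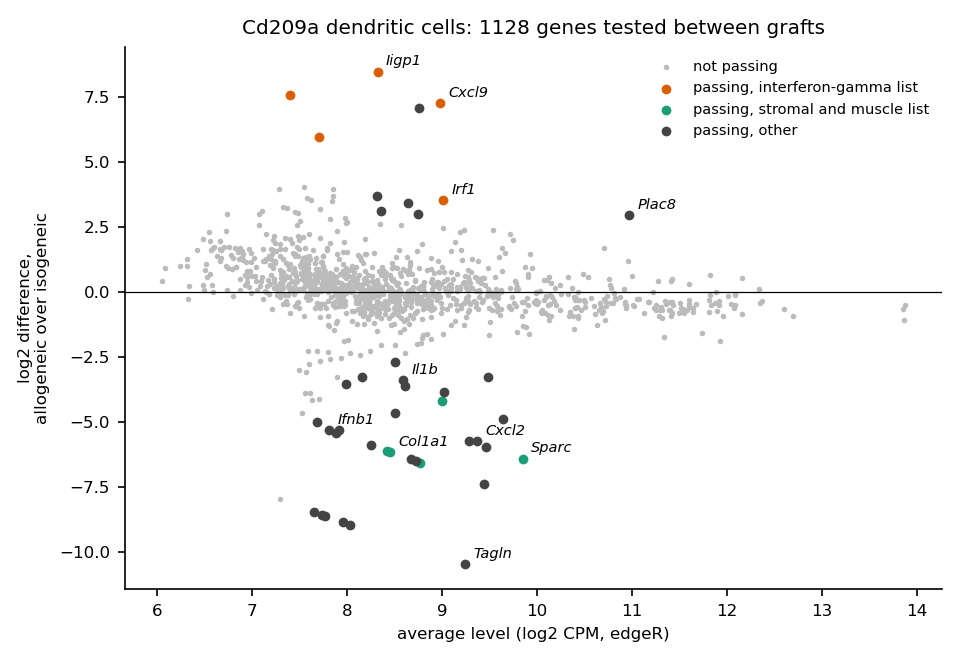
Log2 difference between allograft and isograft Cd209a dendritic cells (y axis) against average level (x axis, log2 CPM) for the 1128 genes tested, with the 42 genes that passed as large points and the interferon-gamma and stromal lists in colour. The 11 rises include 5 interferon-gamma genes, and the 5 stromal genes are all among the falls. These 5 interferon-gamma genes passed the low-count filter through the allografts alone, and the stromal genes passed it through the isograft. The counts therefore show no direction of either list.

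Type 2 dendritic identity and class II genes gave no call between grafts with TMM scaling and all members. Of 35 genes of the type 2 list 15 could be tested and 0 passed edgeR's test, with 4 at an unadjusted p under 0.05 and none by DESeq2; their median was 0.38. Clec10a stood at 539, 655 and 465 CPM in the allografts and 318 CPM in the isograft, and Mgl2 at 294, 131 and 17.9 CPM and 456 CPM. Of 7 class II genes 0 passed edgeR's test (1 at an unadjusted p under 0.05, none by DESeq2). Cd74, the class II invariant chain, was at 18325, 5629 and 10982 CPM and 20190.1 CPM, below the isograft in all 3 allografts (-1.08 ± 0.64, edgeR adjusted p = 0.790). H2-Eb1, a class II beta chain, was at 4409.8, 131 and 1949.6 CPM against 6920.4 CPM (-1.88 ± 0.63, edgeR adjusted p = 0.0670), and passed in 4 of 12 alternatives: RLE scaling (-1.85), total-count scaling (-1.59), removal of top doublet scores (-2.04) and members under 10 Col1a1 UMIs (-2.13). H2-Ea, the alpha chain of the E molecule that some inbred strains do not make, was seen in 2 of 2, 0 of 1 and 5 of 7 members of the allografts and in 52 of 52 of the isograft. The study's title concerns VISTA, an inhibitory immune receptor encoded by Vsir. Vsir was at 0, 262 and 71.5 CPM in the allografts and 76.9 CPM in the isograft, on 0, 2, 4 and 28 UMIs, and was too low to be tested.

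Whether the graft difference was the same in Cd209a dendritic cells and monocytes was tested as the class by graft type term with library as a block. Of 12703 genes 22 passed (0.173%), 1 with a higher (0.00787%) and 21 with a lower (0.165%) allograft effect in Cd209a dendritic cells. The all-gene median was -1.16 with TMM and -0.28 with total-count scaling, which gave 3 higher and 16 lower, so fitted values are read against that shift. H2-Eb1 was at 4102, 3419.8 and 1418 CPM in allograft monocytes and 384 CPM in isograft monocytes, the opposite order to the Cd209a dendritic cells, and its allograft effect differed by -5.74 ± 1.03 (edgeR adjusted p = 0.000121). Cd74 was at 12943, 12423 and 6255 CPM in allograft monocytes and 1897 CPM in isograft monocytes, a difference of effects of -4.40 ± 0.97 (edgeR adjusted p = 0.00965). Both lost the call without allograft 1 (-6.39 and -4.68, edgeR adjusted p = 0.985 and 1.00), and Cd74 also without allograft 2 (-3.22, edgeR adjusted p = 0.326). H2-Ea (-4.65 ± 1.00) and H2-Oa (-4.03 ± 0.93) also passed. H2-Ea lost its call without allograft 1 (-4.84, edgeR adjusted p = 1.00), and H2-Oa without allograft 1, 2 or 3 (-5.77, -3.39 and -3.36, edgeR adjusted p = 0.115, 0.658 and 0.761). Of the 12 class II genes tested 3 passed, all lower, and 8 were at an unadjusted p under 0.05, while DESeq2 called none of them.

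In the isograft alone, where 52 cells gave the deepest sums, Cd209a dendritic cells carried 10.6 times the Cd74 of monocytes (exact interval 10.3 to 11.0), 18.0 times the H2-Eb1 (17.0 to 19.2) and 19.2 times the Ciita (13.1 to 28.3). These intervals cover counting error only, and only the Cd209a gate asked for class II transcripts. In the allografts Cd74 was 18325, 5629 and 10982 CPM in Cd209a dendritic cells against 12943, 12423 and 6255 CPM in monocytes, and the 2 classes overlapped.

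Il1b went opposite ways: Cd209a dendritic cells were lower in the allografts, while monocytes had 971, 1114 and 428 CPM in the allografts and 291 CPM in the isograft. The effects differed by -5.30 ± 1.10 (edgeR adjusted p = 0.00488), a call lost without allograft 1 (-4.57, edgeR adjusted p = 1.00). Of the 28 interferon-gamma genes 0 passed edgeR's test of the difference, with 2 at an unadjusted p under 0.05 and none by DESeq2. Irf1 was at 576, 533 and 645 CPM in allograft monocytes and 95.5 CPM in isograft monocytes, and Iigp1 at 379.7, 394 and 763 CPM and 13.8 CPM. Within libraries, 9 of the 28 were lower in Cd209a dendritic cells than in monocytes and none was higher (4 lower with total-count scaling, and 5, 4 and 8 without allograft 2, allograft 3 and the isograft), with Cxcl9 at 2837, 2190.3 and 3012 CPM in allograft monocytes (-2.81 ± 0.52, edgeR adjusted p = 1.07e-05). Without allograft 1 the list had 1 such call, and Cxcl9 was not it (-3.08, edgeR adjusted p = 0.0510). AW112010 was also lower in Cd209a dendritic cells than in monocytes (-3.32 ± 0.47), in all alternatives run.

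Type 1 dendritic cells, the nearest class, numbered 23, 14 and 22 in the allografts and 11 in the isograft. Of these, 11, 3 and 8 in the allografts and 1 in the isograft also met the monocyte gate, so these 2 classes are not separate. The planned test needed 20 cells of each class per library and was not run, so values stand side by side. Clec10a was at 539, 655, 465 and 318 CPM in Cd209a dendritic cells of allografts 1 to 3 and the isograft, against 11.0, 16.6, 78.7 and 0 CPM in type 1 cells, and Cd209d at 196, 785, 89.4 and 148 CPM against 6.62, 0, 3.75 and 0 CPM. Irf8, the factor that type 1 cells depend on, was at 245, 262, 233 and 35.7 CPM in Cd209a dendritic cells and 1317, 1668, 1424 and 1129.6 CPM in type 1 cells. Both kinds carried Flt3, at up to 107 CPM in Cd209a dendritic cells and 82.5 to 166 CPM in type 1 cells. H2-Eb1 was 5124, 7081, 5359.9 and 5933 CPM in type 1 cells, close across grafts. Irf1 was at 273, 366 and 299.9 CPM in type 1 cells of the allografts and 43.9 CPM in those of the isograft, and Cxcl9 at 929, 1679 and 1780.4 CPM and 0 CPM.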

How the data were processed

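Single-cell suspensions of enzymatically digested grafts were made into 10x Genomics 3′ v3.1 libraries, per the labels' protocols. The authors' deposited filtered matrices hold UMI counts per gene and barcode, unnormalized. Reads were processed with Cell Ranger 3.1.0 and mm10, per the submitters' processing notes, while the matrix headers, per the file headers, give Cell Ranger 6.1.0. The sources do not say whether counting used strand. The matrices list 34097 genes, and 36 symbols stand for several identifiers.

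Members, monocytes and type 1 dendritic cells (at least 2 UMIs of Xcr1 and Clec9a together) were gated on raw counts, and counts were summed per library and class, so cells were never replicates. A gate for mature dendritic cells was not used, since it held collagen transcripts. The members, the gene lists, the tests and the 20-cell minimum for the type 1 comparison were chosen with earlier results of these data known. Sums were tested with edgeR 4.0.16 (R 4.3.3) quasi-likelihood fits, TMM scaling, its expression filter and Benjamini-Hochberg adjustment over all genes tested, and with DESeq2 1.42.0 as an alternative. Standard errors are approximate: |log2 difference| over the root of F. Scripts were tested on simulated data. Shares were compared with exact permutation tests (Python 3.11.15, scipy 1.17.1). Doublets were kept, and removing the top Scrublet scores (scanpy 1.11.5, 0.8% per 1000 barcodes) was an alternative. Folds against 0 counts used a floor of 3 counts over the group, and intervals and floors cover counting error only.

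The rule for named genes took, per comparison, the 10 largest rises and the 10 largest falls among genes past an adjusted p of 0.05 with a mean of at least 50 CPM in the higher group and the same side in every library. It also took, per list, up to 4 passing genes of highest mean CPM (3 where none passed), the markers given for these cells, the gate genes and Vsir. Other genes were chosen after their values were seen, and a few genes that the rule or lists hold are not reported here. Each library was left out in turn, and scaling, filters, gates and depth were varied.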

Additional observations from a re-analysis of the deposited data

Results flagged for a closer look

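Genes are given here when the allograft effect in Cd209a dendritic cells differed from that in monocytes by the test of the difference itself (edgeR quasi-likelihood, adjusted p of 0.05). Each value is the log2 effect in Cd209a dendritic cells minus that in monocytes, read against an all-gene median of -1.16.

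The class II genes were H2-Eb1 (-5.74), H2-Ea (-4.65), Cd74 (-4.40) and H2-Oa (-4.03), all with higher levels in the monocytes of each allograft than in those of the isograft. Cytokines and chemokines were Il1b (-5.30), Cxcl2 (-4.97) and Ccl5 (-4.99). Ccl5, a T and NK cell chemokine, had 49.0, 131 and 17.9 CPM in Cd209a dendritic cells of allografts 1 to 3 and 63.1 CPM in those of the isograft, against 1183, 1352, 1006 and 109 CPM in monocytes, whose T and NK transcripts the gate did not limit.

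Klrd1, the CD94 subunit of an NK cell receptor, had 147, 0 and 35.8 CPM in Cd209a dendritic cells of the allografts and 121 CPM in those of the isograft, against 29.8, 32.5, 23.7 and 1.25 CPM in monocytes (-6.30 ± 1.04, edgeR adjusted p = 8.10e-06). It and AA467197 kept the call in each fit that left out 1 allograft.

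Stromal or endothelial transcripts were Igfbp7 (-6.60), Dcn (-6.12) and Sparc (-5.26). Ctsl (-5.76), a lysosomal protease, and Inpp4b (-5.90), a lipid phosphatase, passed as well.

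A further 5 genes had no UMI in allograft members, so their fitted values are no bounds: AA467197 (-17.27), Gja4 (-14.04), Vcam1 (-13.85), Inhba (-13.75) and Il1a (-13.56). They rested on 33, 26, 32, 23 and 33 UMIs in the isograft members. Of the genes in these paragraphs, Igfbp7, Dcn, Sparc, Ctsl, Ccl5, Vcam1, Gja4, Inhba, Il1a, Inpp4b and Cxcl2 lost the call without allograft 1 and without allograft 3, with edgeR adjusted p of 0.242 to 1.00 without allograft 1, and Gja4, Inhba, Il1a, Inpp4b and Cxcl2 lost it without allograft 2 as well.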

How the results depend on the processing

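No paired analysis was possible because the groups share only the replicate number 2. The 42 calls between grafts became 13 with DESeq2, 5 with members that had a Flt3 or Zbtb46 UMI, and 0 to 62 when 1 allograft was left out, the 0 without allograft 3. The 718 calls against monocytes became 218 with DESeq2, 61 with members free of Fcgr1 and Ly6c2 UMIs (2 libraries) and 1210 with members under 10 Col1a1 UMIs, an alternative chosen after the data were seen, and were 185 to 373 when 1 library was left out. The 22 calls of the difference became 9 without a filter, 1 with DESeq2, 9 with members that had a Flt3 or Zbtb46 UMI and 2 to 14 when 1 allograft was left out. The cause of these moves was not tested, beyond the smaller number of cells and libraries in the left-out fits. No result changed sign. The test between grafts could not be fitted with members free of Fcgr1 and Ly6c2 UMIs. The share difference ranged from -0.218 to -0.407 percentage points over the planned gates and was -0.315 after thinning to 2000 UMIs, and with 1 isograft library no share can pass a test. Depth limits every allograft value, since 10 cells hold 83957 UMIs, 1 count in them being 11.9 CPM.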
